A study of Bos taurus with 18 samples.

Results

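The miR-130 and miR-301 family in cattle plasma was described from 4 mature miRNAs, *bta-miR-130a*, *bta-miR-130b*, *bta-miR-301a* and *bta-miR-301b*, chosen by name from the 1071 miRNAs of the deposited tables. Blood was drawn from 3 Japanese Black steers when they were about 20, 25 and 30 months old, and each plasma sample gave 1 exosomal (EX) and 1 non-exosomal, free circulating (FC) small RNA library. EX RNA comes from small vesicles that cells release, and FC RNA is the RNA left outside them, bound mainly to protein. There were thus 18 libraries in 6 groups of 3, with the same steers, raised under 1 feeding system, at every age. Age therefore cannot be told apart from anything else that differed between the sampling times, and all values describe 3 animals of 1 breed.

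A miRNA binds messenger RNAs mainly through its seed, the bases from position 2 to 8, and lowers the output of the messengers that carry a matching site. miRNAs that share a seed are expected to recognize overlapping sets of messengers and are grouped as a family. The miR-130 and miR-301 family is best known in fat tissue for repressing PPARG, the transcription factor that drives fat cell differentiation, and it is also studied in vessels, blood cells and tumours. No messenger RNA was measured here.

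The mature sequences, as given in the deposited count table, are shown 5′ to 3′ with the seed in capitals, since the shared seed defines the family and the bases after it set the members apart.

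bta-miR-130a: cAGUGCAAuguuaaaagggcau
bta-miR-130b: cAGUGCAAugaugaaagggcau
bta-miR-301a: cAGUGCAAuaguauugucaaagcau
bta-miR-301b: cAGUGCAAugauauugucaaagcau
bta-miR-454: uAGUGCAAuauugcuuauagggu

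All 4 members carry the seed AGUGCAA, and 5 of the 1071 miRNAs in the table have it. The fifth is *bta-miR-454*, which is not a member by name and was used for comparison. *Bta-miR-130a* and *bta-miR-130b* are 22 bases long and differ at 2 positions, U11A and A13G, counted from 1 at the 5′ end with the base of *bta-miR-130a* first. *Bta-miR-301a* and *bta-miR-301b* are 25 bases long and also differ at 2 positions, A10G and G11A, with the base of *bta-miR-301a* first. The first 12 bases of *bta-miR-130b* and *bta-miR-301b* are the same, whereas *bta-miR-301a* shares 9 with either of the miR-130 members. In the RefSeq gene table of ARS-UCD2.0, which is not the build the reads were mapped to, the genes of *bta-miR-130b* and *bta-miR-301b* are neighbours, the genes of *bta-miR-301a* and *bta-miR-454* both lie within SKA2, and the gene of *bta-miR-130a* lies on another chromosome.

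The counts assigned to miRNAs per library ranged from 991354 to 2778618 in EX and from 3615234 to 12088735 in FC, and the lowest library of each fraction was one of 30 months. Abundance is given as CPM, the count divided by the total assigned to miRNAs in the library and multiplied by 1000000. On this scale 3 counts are worth between 1.08 and 3.03 CPM in an EX library and between 0.248 and 0.830 CPM in an FC library, a floor that covers counting error only. In each library many miRNAs carried nearly the same low count, the most common count, which was 38 to 87 in EX at 30 months, 11.9 to 44 in EX at the earlier ages and 10 to 35 in FC. miRNAs of lymphocytes moved with age as well. The summed level of *bta-miR-150* and *bta-miR-342* was 113415 to 324692 CPM in the 6 earlier EX libraries and 13723 to 27464 CPM in the 3 EX libraries at 30 months, and 2 of these 2 were called lower at 30 than at 25 months in each fraction by the test used below. None of them was at 0, and their part in the results for the family was not tested. Of the other marker miRNAs in EX, 1 of 3 for red cells was called lower (*bta-miR-451*), and 0 of 3 for platelets and myeloid cells, 0 of 2 for liver and 0 of 4 tested for muscle were called in either direction between these ages. In FC the only call among them was 1 of 2 for liver (*bta-miR-885*, lower). Between 20 and 30 months in EX *bta-miR-150*, *bta-miR-342* and *bta-miR-451* were called lower (log2 fold changes −3.93, −2.71 and −1.84). *Bta-miR-126-3p*, which is also grouped with vessel-wall miRNAs, was called higher (1.36, FDR 0.0149), as *bta-miR-130a* and *bta-miR-130b* were. Its part in those results was not tested. The others of its list, *bta-miR-126-5p* (0.78, FDR 0.210) and *bta-miR-223* (−0.73, FDR 0.323), were not called. In this comparison 3.48% of all miRNAs were called higher and 13.3% in either direction. Between 25 and 30 months 14.2% of all miRNAs were called in EX and 15.6% in FC, so that the few markers other than those of lymphocytes say little either way. *Bta-miR-150* and *bta-miR-342* had log2 fold changes of −4.06 and −2.31 in EX and −3.38 and −1.81 in FC. CPM is a share of a library, so that more of 1 miRNA and less of the others cannot be told apart.

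All 4 members had a count in every library and passed the filter of more than 5 CPM in at least 3 of 9 libraries in both fractions. Among the 1071 miRNAs, *bta-miR-130a* ranked 94 by mean abundance in EX and 93 in FC, *bta-miR-130b* ranked 101 and 115, *bta-miR-301a* 114 and 106, and *bta-miR-301b* 222 and 275. *Bta-miR-301b* was the rare member, at 2.80% or less of the family sum as a mean of any group. Reads that fit both members of a pair were divided between them: the counts of *bta-miR-130a* and *bta-miR-130b* were not whole numbers in the same 8 of 18 libraries, and those of *bta-miR-301a* and *bta-miR-301b* in the same 12. The number of shared reads is not known, so part of the count of each member may belong to its partner.

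*Bta-miR-130a* had the highest mean of the members in EX at 30 months, although *bta-miR-130b* was above it in steer 1 and the gap between the means was within their SDs. Its abundance in EX was 367, 212 and 247 CPM at 20 months, 431, 371 and 174 CPM at 25 months, and 1283, 1248 and 894 CPM at 30 months (steers 1, 2 and 3, in this order here and below). In FC it was 502, 350 and 430 CPM, then 575, 355 and 267 CPM, then 664, 699 and 654 CPM. Every 30 months library stood above every earlier library of its fraction. From the highest, the group means were 1142 ± 216 CPM in EX at 30 months, 672 ± 23.8 in FC at 30 months, 427 ± 76.1 in FC at 20, 399 ± 159 in FC at 25, 326 ± 135 in EX at 25 and 275 ± 81.4 in EX at 20 months (mean ± SD, n = 3). The highest group did not overlap the next, nor that one the third, while the other neighbours overlapped.

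*Bta-miR-130b* showed the same order of the 30 months groups with a wider spread between steers. In EX it was 425, 136 and 202 CPM at 20 months, 389, 92.2 and 80.6 CPM at 25 months, and 1523, 839 and 659 CPM at 30 months. In FC it was 460, 172 and 294 CPM, then 386, 250 and 124 CPM, then 618, 338 and 403 CPM. Steer 1 was highest in all 6 groups. The group means were 1007 ± 456 CPM in EX and 453 ± 146 in FC at 30 months, and between 187 ± 175 (EX at 25 months) and 309 ± 144 (FC at 20 months) in the other groups. The EX libraries at 30 months lay above all 15 other libraries, and the other 5 groups overlapped their neighbours. How many of all miRNAs separate in this way was not counted, for this or any other member.

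In CPM *bta-miR-301a* stayed within 1 range throughout. Its abundance in EX was 514, 232 and 577 CPM at 20 months, 403, 459 and 250 CPM at 25 months and 323, 392 and 255 CPM at 30 months. In FC it was 487, 264 and 553 CPM, then 405, 372 and 255 CPM, then 482, 224 and 400 CPM. The group means ran from 441 ± 184 CPM (EX at 20 months) to 323 ± 68.3 CPM (EX at 30 months), and every pair of neighbours in that order overlapped.

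*Bta-miR-301b* was low except in EX at 30 months. It was 6.33, 12.8 and 9.13 CPM in EX at 20 months, 7.11, 10.1 and 0.410 CPM at 25 months, and 102, 58.0 and 55.0 CPM at 30 months. The value of steer 3 at 25 months was a single count. In FC it was 24.1, 12.5 and 18.9 CPM, then 10.1, 11.3 and 4.16 CPM, then 16.5, 8.57 and 8.28 CPM. The EX libraries at 30 months lay above all others, at a mean of 71.6 ± 26.2 CPM, and the next group, FC at 20 months, had 18.5 ± 5.78 CPM. The remaining group means lay between 5.86 and 11.1 CPM, and all neighbours but the highest pair overlapped.

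**Figure D1:**
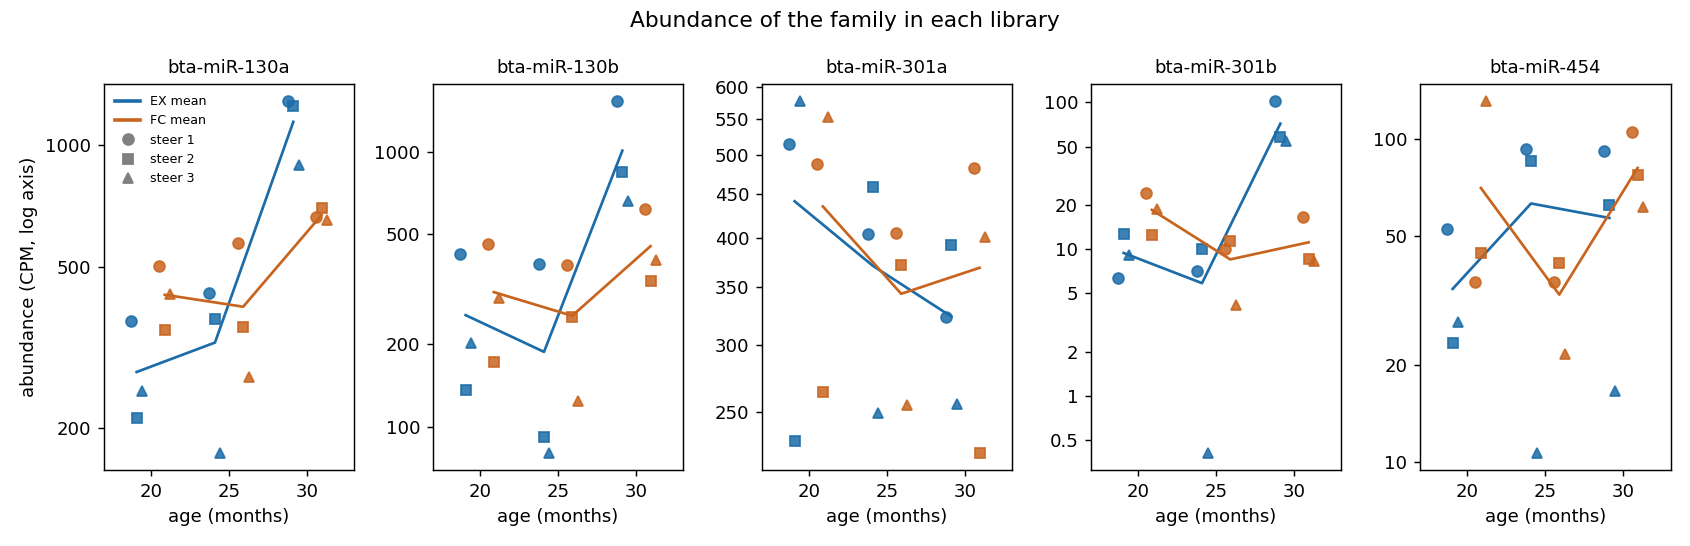
Abundance in CPM (log axis, with its own range in each panel) of the 4 members and bta-miR-454 against age in months; each point is 1 library, shaped by steer, and lines join the means of EX and FC. For bta-miR-130a, bta-miR-130b and bta-miR-301b the 3 EX libraries at 30 months stand above all other libraries, while the groups of bta-miR-301a overlap.

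The ages were compared within each fraction to see which members changed while the animals fattened, as paired tests on the same steers (edgeR quasi-likelihood test with Benjamini-Hochberg FDR over all miRNAs tested, called at FDR < 0.05 and |log2 fold change| > 1). In EX, 2 of the 4 members were called between 25 and 30 months and both rose, against 3.77% of the 345 miRNAs called higher and 14.2% called in either direction. *Bta-miR-130a* rose with a log2 fold change of 1.43 (standard error 0.28, FDR 0.0117), and *bta-miR-130b* with 2.25 (standard error 0.37, FDR 0.00730). Each was higher at 30 months in 3 of 3 steers, the first by 2.98, 3.36 and 5.13 times in CPM and the second by 3.91, 9.10 and 8.17 times. Both calls rested on all 3 steers: with any 1 steer left out, FDR was 0.0897 to 0.109 for *bta-miR-130a* (log2 fold change 1.32 to 1.45) and 0.0503 to 0.0930 for *bta-miR-130b* (1.95 to 2.52), and 0 of 4 members were called.

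*Bta-miR-301b* had a larger estimate and was not called: its log2 fold change in EX from 25 to 30 months was 3.61 with a standard error of 1.40 and an FDR of 0.129. By DESeq2 its FDR was 0.00267, by the likelihood ratio test of edgeR 0.0274, and over all alternatives 0.00267 to 0.323. Its log2 fold change over them ran from 2.98 (without steer 3) to 4.30 (without steer 2). Its libraries nevertheless did not overlap between these ages, as for *bta-miR-130a* and *bta-miR-130b*; all 3 libraries at 30 months were above all 3 at 25 months for 18% of the miRNAs tested. *Bta-miR-301a* had a log2 fold change of −0.63 (standard error 0.40, FDR 0.346), and it was lower at 30 months in 2 of 3 steers. The median of all 345 miRNAs was −0.51, so *bta-miR-301a* lay at −0.12 relative to it, *bta-miR-130a* at 1.93 and *bta-miR-130b* at 2.76. With library totals in place of TMM (trimmed mean of M values) scaling the median was −0.04, and the same 3 values were −0.15, 1.91 and 2.76. That scaling gave 21 higher and 21 lower calls over all miRNAs, against 13 and 36 with TMM.

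The counts of *bta-miR-301b* in EX at 25 and 30 months were at most 2.33 times the most common count of their libraries. They were 202.5, 57.5 and 59.5 in EX at 30 months, which is 2.33, 0.833 and 1.57 times that count, and 16, 18.5 and 1 at 25 months, which is 0.615, 0.435 and 0.0227 times. At 20 months they stood at 1.09, 2.73 and 0.5 times, which the 30 months values overlapped. The part of this in the estimate for *bta-miR-301b* was not tested. In the same 30 months libraries *bta-miR-130a* stood at 29.3, 17.9 and 25.5 times the most common count, *bta-miR-130b* at 34.8, 12.1 and 18.8 times and *bta-miR-301a* at 7.39, 5.63 and 7.28 times. At the earlier ages *bta-miR-130a* stood at 63.3, 45.4 and 13.5 times (20 months) and 37.3, 16.1 and 9.65 times (25 months), and *bta-miR-130b* at 73.3, 29.1 and 11.1 times and 33.7, 3.99 and 4.47 times. *Bta-miR-301a* stood at 88.5, 49.5 and 31.6 times and 34.9, 19.8 and 13.8 times, all above its values at 30 months. On this scale, which is not corrected for library totals, the 30 months values of *bta-miR-130a* and *bta-miR-130b* overlapped those of each earlier age. They were above 25 months in 2 of 3 steers for *bta-miR-130a* and 3 of 3 for *bta-miR-130b*, and above 20 months in 1 of 3 for each. Division by the most common count moves all miRNAs of a library alike. That count was worth 35.1 to 69.6 CPM in EX at 30 months and 4.68 to 23.1 CPM at the earlier ages, so every miRNA is lowered more at 30 months. Overlaps and counts of steers on this scale are therefore no result about these members, and no share over all miRNAs was counted. The rise of *bta-miR-130a* and *bta-miR-130b* in CPM is not seen as separate groups when each library is read against its own most common count. The cause was not tested. Fitting the 30 months counts after division by it does not bear on this, since scaling by library totals cancels a constant; it only makes those counts smaller, and *bta-miR-130a* (log2 fold change 1.25, FDR 0.0176) and *bta-miR-130b* (2.06, FDR 0.00296) then had the values given.

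**Figure D2:**
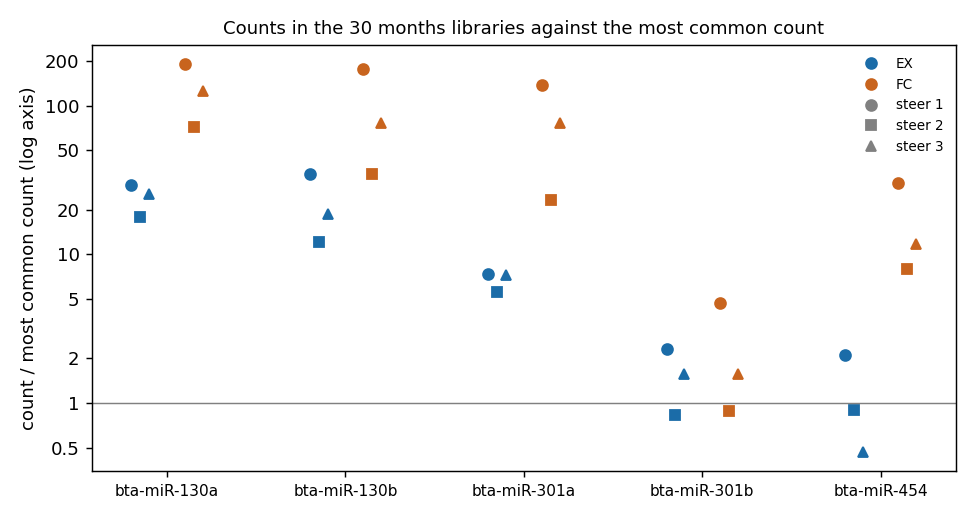
Count of each member and of bta-miR-454 in the 6 libraries at 30 months, divided by the most common count of the library (log axis); points are libraries, coloured by fraction and shaped by steer, and the grey line marks 1. In EX bta-miR-301b and bta-miR-454 lie near the line, between 0.474 and 2.33, and bta-miR-130a and bta-miR-130b lie between 12.1 and 34.8.

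The comparison of 30 with 20 months in EX uses the same 30 months libraries, so it is not independent of the one above. Again 2 of 4 members were called higher, against 3.48% of miRNAs called higher and 13.3% in either direction. *Bta-miR-130a* rose with a log2 fold change of 1.71 (standard error 0.29, FDR 0.00790) and *bta-miR-130b* with 1.71 (standard error 0.36, FDR 0.0164), each in 3 of 3 steers. Without the replicate block, that is, without pairing the libraries of a steer, *bta-miR-130b* had an FDR of 0.0844 at a log2 fold change of 1.71 and was not called. Leaving out steer 1 or steer 2 left 0 calls, and leaving out steer 3 left *bta-miR-130a* (FDR 0.0457). With 1 steer left out the log2 fold change was 1.59 to 1.84 for *bta-miR-130a* and 1.52 to 1.91 for *bta-miR-130b*. *Bta-miR-301b* had 2.53 (standard error 1.32, FDR 0.254), or 2.67 with an FDR of 0.0393 by DESeq2, which called it, and *bta-miR-301a* −0.77 (standard error 0.41, FDR 0.269). Libraries did not overlap for *bta-miR-130a*, *bta-miR-130b* and *bta-miR-301b*, as for 17.7% of miRNAs in this direction. The median of all miRNAs was −0.64 here, with 12 higher and 34 lower calls, and −0.30 with library totals, with 13 and 15. Between 20 and 25 months 0 of 4 members were called in EX, also by DESeq2 and the likelihood ratio test, and 0 had an unadjusted p under 0.05; 0.29% of all miRNAs were called.

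In FC, 0 of 4 members were called between 25 and 30 months, while 15.6% of the 358 miRNAs tested were. The log2 fold changes were 0.70 for *bta-miR-130a* (standard error 0.23, FDR 0.0612), 0.79 for *bta-miR-130b* (0.27, FDR 0.0691), −0.07 for *bta-miR-301a* (0.28, FDR 0.856) and 0.29 for *bta-miR-301b* (0.56, FDR 0.716). Unadjusted p was under 0.05 for 2 of them, *bta-miR-130a* and *bta-miR-130b*, which were higher in 3 of 3 steers, and for 133 of all 358 miRNAs, and 0 were called by DESeq2 or the likelihood ratio test. For these 2 members that rested on the fold rule, since FDR was 0.0218 for each by DESeq2, and 0.0398 and 0.0412 by the likelihood ratio test. Only *bta-miR-130a* among the members had all its libraries at 30 months above those at 25 months, as 20.7% of miRNAs did. Against 20 months, 0 of 4 members were called in FC and 6.98% of all miRNAs were. *Bta-miR-130a* had 0.69 (standard error 0.23, FDR 0.0905), *bta-miR-130b* 0.62 (0.27, FDR 0.164), and both had an unadjusted p under 0.05, as 104 of 358 miRNAs had, with 0 calls by DESeq2, where *bta-miR-130a* had an FDR of 0.0341 and missed the fold rule, or by the likelihood ratio test. *Bta-miR-130a* alone among the members did not overlap between these ages, as 14.8% of miRNAs in this direction. Between 20 and 25 months 0 of 4 members were called in FC by any of these 3 tests, 0 had an unadjusted p under 0.05, and 0% of all miRNAs were called. All libraries of *bta-miR-301b* at 25 months lay below those at 20 months (log2 fold change −1.04, standard error 0.56). The share of all miRNAs that did so was not counted.

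**Figure D3:**
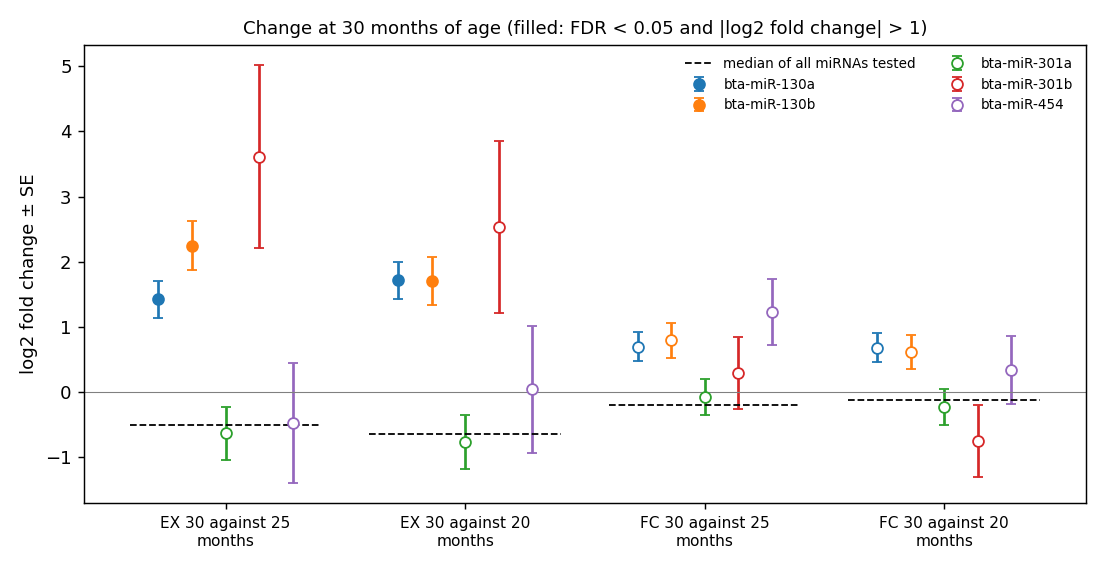
Log2 fold change with its standard error for the 4 members and bta-miR-454 at 30 months against 25 and 20 months, in EX and FC (n = 3 steers per age); filled points were called and dashed lines mark the median of all miRNAs tested. Filled points are bta-miR-130a and bta-miR-130b in both EX comparisons, from 1.43 to 2.25, and bta-miR-301a stays near the dashed line in all 4 comparisons.

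To ask whether the change from 25 to 30 months differed between the fractions, the difference itself was tested over all 18 libraries. It was called at FDR < 0.05 for 1 of 4 members, *bta-miR-130b*, and for 7.88% of the 330 miRNAs that passed the filter in both fractions. The change of *bta-miR-130b* was larger in EX than in FC by 1.51 on the log2 scale (standard error 0.43, FDR 0.0480). This value is close to the threshold: FDR was 0.0467 with RLE (relative log expression) size factors, 0.365 without the replicate block, 0.0606 with the 2 libraries of a plasma sample paired, and from 0.151 to 0.524 with 1 steer left out. *Bta-miR-130a* (0.81, standard error 0.30, FDR 0.149), *bta-miR-301b* (3.25, standard error 1.15, FDR 0.128) and *bta-miR-301a* (−0.48, standard error 0.44, FDR 0.675) were not called by this test. DESeq2 called 3 members, *bta-miR-130b* (FDR 0.00635), *bta-miR-130a* (0.0485) and *bta-miR-301b* (0.00583), and the likelihood ratio test called 2, *bta-miR-130b* (0.0220) and *bta-miR-301b* (0.0166).

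Compared directly, EX and FC differed for 0 of 4 members at each age by the main test. At 20 months 1.21% of miRNAs were called and at 25 months 1.82%. In both, 1 member had an unadjusted p under 0.05, as 24 and 30 of 330 miRNAs had, and 0 were called by DESeq2 or the likelihood ratio test. At 30 months 15.2% of all miRNAs were called, 7 higher and 43 lower in EX, or 19 and 35 with library totals. Here 3 of 4 members had an unadjusted p under 0.05, as 103 of 330 miRNAs had, and DESeq2 and the likelihood ratio test each called 1, *bta-miR-301b*. The EX level of *bta-miR-301b* was 6.16, 6.76 and 6.63 times the FC level of the same plasma at 30 months, against 0.0987 to 1.02 times in the 6 earlier plasma samples. Its log2 fold change was 2.44 (standard error 0.83, FDR 0.0519), and over the alternatives FDR ran from 0.000330 to 0.259. *Bta-miR-130b* stood at 2.46, 2.48 and 1.63 times, with a log2 fold change of 0.84 (standard error 0.30, FDR 0.0631), and *bta-miR-130a* at 1.93, 1.78 and 1.37 times (0.47, standard error 0.21, FDR 0.143). *Bta-miR-301a* stood at 0.671, 1.75 and 0.638 times, so the steers did not share a direction.

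The balance between the members is given as a description, with no test. The sum of the 4 members was 980 ± 363 CPM at 20 months, 889 ± 365 CPM at 25 months and 2544 ± 684 CPM at 30 months in EX, and 1189 ± 350, 1005 ± 363 and 1505 ± 257 CPM in FC (mean ± SD, n = 3). In EX *bta-miR-301a* made up 39.1, 39.1 and 55.7% of the sum at 20 months, then 32.8, 49.2 and 49.5%, and 10%, 15.4% and 13.7% at the last age. The ratio of *bta-miR-301a* to *bta-miR-130b*, which needs no scaling between libraries, was 1.21, 1.70 and 2.85 in EX at 20 months, then 1.04, 4.97 and 3.10, and at the last age 0.212, 0.467 and 0.388. The 30 months libraries lay below all earlier ones for both measures. In FC this ratio was 0.780, 0.664 and 0.992 at 30 months and between 1.05 and 2.06 in the 6 earlier libraries, without overlap. The ratio of *bta-miR-301a* to *bta-miR-130a* did overlap in FC, at 0.726, 0.321 and 0.612 at 30 months against 0.704 to 1.29 in the earlier libraries.

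**Figure D4:**
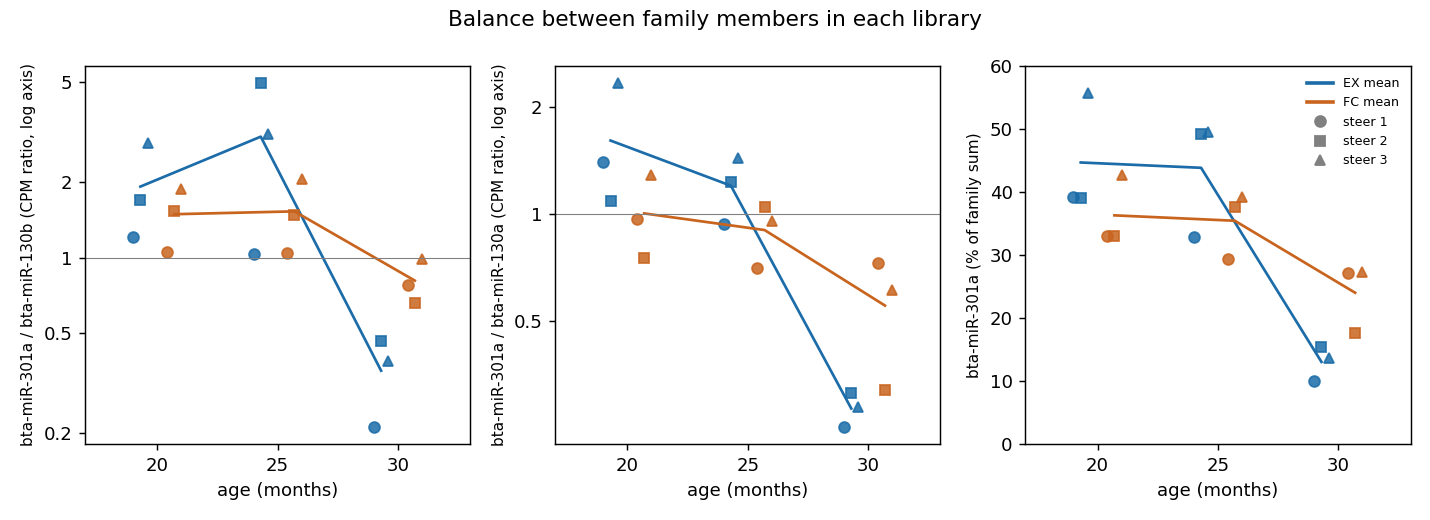
Ratio of bta-miR-301a to bta-miR-130b and to bta-miR-130a (CPM ratios, log axes, grey line at 1) and share of bta-miR-301a in the sum of the 4 members (percent), against age in months; points are libraries, shaped by steer, and lines join the means of EX and FC. In EX the mean share is 44.7% at 20 months, 43.8% at 25 months and 13.1% at 30 months, and the 30 months points lie below all others.

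The members were also compared by how alike their levels were across libraries. The neighbours *bta-miR-130b* and *bta-miR-301b* had a Pearson r of 0.815 in EX and 0.597 in FC over 9 libraries (log2(CPM + 1)), and *bta-miR-301a* and *bta-miR-454* had 0.538 and 0.421. *Bta-miR-130a* and *bta-miR-130b*, whose genes lie apart, had 0.896 and 0.877, and *bta-miR-130a* and *bta-miR-301a* had 0.0036 and 0.262. The other pairs of members were *bta-miR-301a* and *bta-miR-301b* (−0.064 and 0.719), *bta-miR-130b* and *bta-miR-301a* (0.055 and 0.628), and *bta-miR-130a* and *bta-miR-301b* (0.890 and 0.292). The neighbours were thus not the most alike in either fraction. The part of divided reads in these r was not tested. These r describe 9 libraries of 3 steers, which share animals, ages and depth. *Bta-miR-454* was 52.6, 23.4 and 27.1 CPM in EX at 20 months, then 93.8, 85.4 and 10.7 CPM, and at the last age 92.0, 62.5 and 16.6 CPM, and its groups overlapped in EX. In FC it was 36.2, 44.4 and 131 CPM, then 36.0, 41.4 and 21.6 CPM, then 106, 77.5 and 61.8 CPM, so that the last age did not overlap 25 months and did overlap 20 months. Its log2 fold change from 25 to 30 months was −0.47 in EX (standard error 0.92, FDR 0.797) and 1.23 in FC (0.51, unadjusted p 0.0392 and FDR 0.116 by edgeR), and it was called in neither.

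Of all miRNAs tested, those most like *bta-miR-130a* in EX were *bta-miR-320a* (r = 0.972), *bta-miR-760-3p* (0.954) and candidate-miR-40 (0.947), a candidate miRNA numbered 40 in the tables, over the same 9 libraries. For *bta-miR-130b* they were *bta-miR-320a* (0.943), *bta-miR-423-5p* (0.932) and *bta-miR-375* (0.931), and for *bta-miR-301b* they were *bta-miR-7* (0.935), *bta-miR-760-3p* (0.934) and *bta-miR-152* (0.931). *Bta-miR-301a* was less closely matched, by *bta-miR-223*, a miRNA of platelets and myeloid cells (0.796), *bta-miR-23a* (0.787) and candidate-miR-17 (0.783). In FC the nearest were *bta-miR-29c*, *bta-miR-429* and *bta-miR-10a* for *bta-miR-130a* (0.945, 0.933 and 0.926), and *bta-miR-27b*, *bta-miR-1343-3p* and *bta-miR-1388-3p* for *bta-miR-130b* (0.942, 0.922 and 0.917). *Bta-miR-6123*, candidate-miR-8 and *bta-miR-204* were nearest to *bta-miR-301a* (0.920, 0.824 and 0.823), and *bta-miR-2284ab*, *bta-miR-326* and *bta-miR-7861* to *bta-miR-301b* (0.889, 0.837 and 0.817).

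The seeds of 5 other miRNAs overlap AGUGCAA by 6 bases when moved by 1 position, and 2 of them are shown with their own seed in capitals to let the shift be seen.

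bta-miR-19b: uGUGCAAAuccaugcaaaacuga
bta-miR-152: uCAGUGCAugacagaacuuggg

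*Bta-miR-19a* and *bta-miR-19b*, members of the miR-17-92 cluster family known in cell proliferation, share the seed GUGCAAA, and *bta-miR-148a*, *bta-miR-148b* and *bta-miR-152* share CAGUGCA. Between 25 and 30 months in EX, 1 of these 5 was called higher and 1 lower, with a median log2 fold change of 0.42; over all 345 miRNAs 14.2% were called, 13 higher and 36 lower, and the median was −0.51. *Bta-miR-152* was 727 ± 342 CPM at 25 months and 1956 ± 214 CPM at 30 months, a rise of 1.10 on the log2 scale (standard error 0.30, FDR 0.0413). *Bta-miR-19b* fell from 1329 ± 276 to 698 ± 275 CPM (−1.44, standard error 0.23, FDR 0.00607). In FC *bta-miR-152* was the 1 called (1.21, standard error 0.27, FDR 0.0261), and the median was 0.76, against −0.20 and 15.6% called over all 358 miRNAs.

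Of 7 miRNAs known to hinder fat cell differentiation, the role for which the miR-130 family is best known, 0 were called higher and 2 lower from 25 to 30 months in EX, and 0 and 3 in FC. Their medians were −0.36 and −0.44, against −0.51 and −0.20 over all miRNAs, of which 36 of 345 were called lower in EX and 36 of 358 in FC. In EX *bta-miR-31* fell by 2.18 on the log2 scale (standard error 0.53, FDR 0.0299) and *bta-miR-155* by 1.67 (0.45, FDR 0.0413), while *bta-miR-27a-3p* (0.14, FDR 0.796) and *bta-miR-27b* (0.08, FDR 0.869), which also repress PPARG, were not called. Of 6 miRNAs known to favour fat cell differentiation, 2 were called higher and 0 lower in EX, and 0 in FC by the main test, with medians of 0.10 and −0.06 beside the same −0.51 and −0.20; over all miRNAs 3.77% were called higher in EX and 15.6% in either direction in FC. The 2 were *bta-miR-375* (1.60, standard error 0.21, FDR 0.00295) and *bta-miR-210* (1.93, standard error 0.52, FDR 0.0413). *Bta-miR-375* was 1564, 956 and 881 CPM in EX at 25 months and 4812, 3726 and 5376 CPM at 30 months, which do not overlap. Between 20 and 30 months in EX, the calls were 0 of the 7 that hinder and 1 of the 6 that favour fat cell differentiation (*bta-miR-375*, higher), with 2 of the 5 of shifted seed lower (*bta-miR-19a* and *bta-miR-19b*), against 13.3% of all miRNAs. *Bta-miR-31* (FDR 0.104), *bta-miR-155* (0.193), *bta-miR-210* (0.112) and *bta-miR-152* (0.0920) were not called there. In FC 1 of 7, 0 of 6 and 0 of 5 were called between 20 and 30 months, the 1 being *bta-miR-222*, lower, against 6.98% of all 358 miRNAs.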

How the data were processed

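The authors trimmed the reads (Cutadapt 5.0, Trimmomatic 0.39), mapped them with miRDeep2 to a Japanese Black genome built on ARS-UCD and counted reads per mature miRNA. The deposited counts are expected counts, because shared reads are divided, and were rounded for the tests. The deposited CPM values are those counts divided by the library total and multiplied by 1000000; the authors' table also holds a total row, which was left out. In 4 FC libraries the 2 tables stood 1 row apart from row 956 on, below all family rows, and the counts were realigned to CPM. Each library was checked against the others of its group (18 pairs, smallest chi-square per degree of freedom 205), and none was a copy.

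Counts were filtered (CPM > 5 in at least 3 of 9 libraries), scaled by TMM and fitted with edgeR 4.0.16 (quasi-likelihood, R 4.3.3) with age and steer; the standard error is the log2 fold change over the square root of F. DESeq2 1.42.0 was an alternative. Same-numbered libraries come from the same steer, as the study's sampling records show. Over 330 miRNAs the deviations of a steer's libraries from their group means correlated only weakly. The mean r was 0.0232 in EX (−0.037 to 0.0788) and 0.0893 in FC (−0.0192 to 0.249). The mean r between steers, −0.0117 and −0.0450, is tied to these values, since the deviations within a group cancel. It is thus no separate check of the pairing. The most common count is the median count within the window of a factor of 1.25 that holds most miRNAs. On simulated counts the test recovered 14% and 38% of changes of 1 and 2 log2 units in EX between 25 and 30 months, and 29% and 78% in FC. A change of 1 unit lies on the fold threshold, so its recovery is limited by that rule at any depth. The simulation changed 200 miRNAs per fraction and held no steer effect, so these shares do not measure the power in the real data. The members and lists were chosen with earlier results of these data known. Named miRNAs are the members, those with their seed, the 3 most alike per member and fraction, and the lists given.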

Additional observations from a re-analysis of the deposited data

Results flagged for a closer look

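For *bta-miR-130b* the change between 25 and 30 months was larger in EX than in FC by 1.51 on the log2 scale (edgeR quasi-likelihood test over 18 libraries, FDR 0.0480), which is why it is listed here. In EX it was higher at 30 months by 3.91, 9.10 and 8.17 times in CPM, and in FC by 1.60, 1.35 and 3.25 times. The difference was in the same direction in 3 of 3 steers, and without steer 2 it was 0.74 with an FDR of 0.524.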

How the results depend on the processing

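Of 290 log2 fold changes of members recomputed under the alternatives, 252 kept their direction and their side of the threshold, 22 were no longer called, 14 became called and 2 changed sign. Both of the latter were *bta-miR-301a* in FC between 25 and 30 months, at 0.014 with library totals only and between −0.27 and 0.33 with a replicate left out (0.33 without replicate 2); the cause was not tested. Members called in EX between 25 and 30 months numbered 2, 3 by DESeq2 and by the likelihood ratio test, and 0 when any replicate was left out. Between 20 and 30 months in EX they numbered 2, 3 by DESeq2, 1 with no replicate block and 0 to 1 with a replicate left out. For the difference between the fractions, 1 was called, but 3 by DESeq2, 2 by the likelihood ratio test, and 0 with library totals only, no filter, CPM > 5 in all 9 libraries, no replicate block, the replicate block by plasma sample, the rows as deposited, counts at 30 months divided by the most common count, or any replicate left out. For EX against FC at 30 months, 0 were called, but 2 with library totals only, and 1 each with RLE size factors, DESeq2, the likelihood ratio test, no replicate block and the rows as deposited; leaving out a replicate gave 0 to 1, the 1 being *bta-miR-301a*, lower in EX at −1.02 without replicate 2 (FDR 0.0482) against −0.40 with all. Counts in the other comparisons were 0 throughout, and the replicate block changed no other call. Of the 24 most alike miRNAs, 20 were named with a pseudocount of 5 as well. The family sum in EX at 30 months was 2117 CPM with TMM-scaled libraries. Under CPM > 5 in all 9 libraries *bta-miR-301b* was not tested. A change of 1 log2 unit is often missed at this depth and with 3 steers.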
